A study of Homo sapiens with 2 samples.

Results

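The plasminogen activation genes PLAU, PLAUR, PLAT and SERPINE2 were read on 2 arrays of Ca9-22 cells, an established line of oral squamous cell carcinoma (OSCC). A probe was taken where its gene name in the array files equalled that of a member and it was not a control probe. This gave 5 of 58201 probes, 4 of 43317 gene names and 14 of 60901 spots. Probes were matched by name only and not by a measured value, but the members were chosen with earlier results of these data known. Of the 5 probes, 4 were well above background on both arrays and 1, a second PLAU probe, on neither.

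The study asked what the long noncoding RNA DLEU1 does in OSCC cells. The control vector cells carried an empty lentiviral vector, and the DLEU1 vector cells carried full-length DLEU1 cDNA cloned from another OSCC line, KON. Both were selected with blasticidin. The Cy3-labelled RNA of each group went onto 1 single-colour Agilent array, so no replicate check of any difference exists and no p-value was computed. Whether the cells on each array were 1 clone or a pool was not given in the sources used here.

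Plasminogen activation turns the circulating zymogen plasminogen into plasmin, a protease that cleaves fibrin and matrix proteins and activates other proteases. PLAU encodes urokinase, which works mainly at the cell surface, where it is held by its receptor, the product of PLAUR. PLAT encodes tissue-type plasminogen activator, known best for dissolving clots on fibrin. SERPINE2 encodes protease nexin-1, a secreted serpin that blocks thrombin and both activators. In squamous epithelium, urokinase and its receptor are known from migrating keratinocytes and from the invasive edge of carcinomas.

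The probes that read the receptor and the serpin are shown first, since each of these genes rests on a single spot. Both are 60 bases long and are given as the array files hold them. The PLAUR probe A_23_P16469 lies on the minus strand at chr19:44169498-44169557 (hg19) and starts at base 446 of its transcript NM_001005377. The SERPINE2 probe A_23_P50919 lies on the minus strand at chr2:224840597-224842295 (hg19), so that its 60 bases span 1699 genomic positions, and it starts at base 1367 of NM_006216.
PLAUR: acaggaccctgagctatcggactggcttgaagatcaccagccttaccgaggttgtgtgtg
SERPINE2: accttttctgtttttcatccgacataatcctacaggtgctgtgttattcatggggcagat

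Because PLAU, PLAUR and SERPINE2 all read lower with the DLEU1 vector, the 250 bases before their start sites were set side by side. They came from RefSeq on GRCh38.p14, which gave 2 start sites for PLAU, 1 for PLAUR and 2 for SERPINE2, and the window with the most motif matches is shown for each gene. Capitals mark matches, on either strand, to the letters of an AP-1 site (TGANTCA), an ETS or PEA3 site (AGGAAG), a GC box (GGGCGG) and a TATA box (TATAAA). The PLAU window is chr10:73910882-73911131 (plus strand), the PLAUR window chr19:43670170-43670419 (minus strand) and the SERPINE2 window chr2:224038641-224038890 (minus strand).
PLAU: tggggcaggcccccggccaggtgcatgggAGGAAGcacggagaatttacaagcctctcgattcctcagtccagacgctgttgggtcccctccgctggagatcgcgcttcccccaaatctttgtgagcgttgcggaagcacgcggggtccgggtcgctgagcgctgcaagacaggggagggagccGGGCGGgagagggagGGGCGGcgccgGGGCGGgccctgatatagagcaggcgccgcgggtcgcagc
PLAUR: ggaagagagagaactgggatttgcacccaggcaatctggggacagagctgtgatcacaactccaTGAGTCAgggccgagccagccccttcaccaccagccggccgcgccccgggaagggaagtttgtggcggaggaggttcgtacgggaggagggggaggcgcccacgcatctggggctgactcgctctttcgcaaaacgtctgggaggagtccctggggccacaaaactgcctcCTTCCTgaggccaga
SERPINE2: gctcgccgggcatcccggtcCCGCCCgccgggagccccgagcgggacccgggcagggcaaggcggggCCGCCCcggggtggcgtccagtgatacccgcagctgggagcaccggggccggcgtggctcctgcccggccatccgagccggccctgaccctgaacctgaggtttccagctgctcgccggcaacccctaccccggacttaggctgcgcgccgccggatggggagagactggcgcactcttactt

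The AP-1 letters were in the PLAUR window alone, 186 to 180 bases before the start, and 6.57% of 35114 RefSeq windows of this length held them. The ETS letters were in the PLAU window, 221 to 216 bases before the start, and in the PLAUR window, 15 to 10 bases before it, against 28.7% of all windows. The PLAU window held the GC box at 3 places and the SERPINE2 window at 2, against 42.6% of all windows. The TATA letters, found in 3763 of the 35114 windows, were in none of the 5. The other PLAU window, at start site 73910610, held none of these motifs, and the other SERPINE2 window, at start site 224031478, held 1 GC box. These windows shared no motif across all 3 genes. A GC content of 68.8%, 63.2% and 75.2% in the PLAU, PLAUR and SERPINE2 windows shown stood above the median of 58.0% of all windows, whereas the other PLAU and SERPINE2 windows, at 46.8% and 53.2%, stood below it. The windows shown were picked for their matches, GC boxes included, which favours GC-rich windows. A match describes letters and not a site in use.

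As a check of the vector, DLEU1 was higher on the DLEU1 vector array at its brightest probe, from a log2 level of 3.17 to 5.91, which is 6.67-fold. The 2 other DLEU1 probes, dimmer and listed for transcript NR_109974, were 1.81-fold and 1.46-fold higher. Levels here are log2 processed signal less the array's own 75th percentile, taken without control probes, and differences are DLEU1 vector minus control vector. Between 47.6% and 48.1% of probes were well above background on an array, 0 spots were saturated, and 26279 probes of 20246 genes were detected on both. The spot-to-spot SD of a log2 difference was 0.080 over 282 probes with replicated spots. It measures the array only and holds no variation between cultures. In a strip of the DLEU1 vector array 26.7% of the spots lit on the control vector array were at least 2-fold lower, against 12.6% elsewhere, and 1 of the 10 PLAT spots lay in it.

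Of the 4 member probes detected on both arrays, 2 were at least 2-fold lower with the DLEU1 vector (PLAU and SERPINE2) and 1 was at least 2-fold higher (PLAT). The receptor PLAUR was lower by less than 2-fold. Over all probes detected on both arrays, 9.78% were at least 2-fold lower and 8.98% at least 2-fold higher. With so few members these counts describe the genes one by one and say nothing about a family. Higher probes made up 47.9% of the probes past 2-fold, and 21.5% where the spike-in probes were set equal on both arrays.

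PLAU, the urokinase gene, was read by the probe A_23_P24104 on chromosome 10 from 75677050 to 75677109 (hg19, plus strand), at base 2168 of transcript NM_002658. Its processed signal on the control vector array, 393, compared with 155 on the DLEU1 vector array, where the scanner software put its own error at 39.4 and 15.9. The signal was therefore lower on the DLEU1 vector array, by more than the software errors of both arrays together. The log2 level went from 0.70 to -0.61, a difference of -1.30 or 2.47-fold lower, which is 16.3 times the spot SD. Among the 20246 genes detected on both arrays, 1075 (5.31%) had a difference as low or lower.

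The second PLAU probe, A_33_P3306146, listed for transcript NM_001145031, lies upstream of the first on chromosome 10 from 75674614 to 75674673. Its control vector signal of 12.5 and DLEU1 vector signal of 3.72 were not well above background on either array, so no fold is given. The probes of PLAU therefore did not check each other. The median signal of the local background was between 22.0 and 25.5 around both probes.

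PLAT, the tissue-type activator, was the only member printed at several places on the array, with 10 spots of the probe A_23_P82868. The probe lies on chromosome 8 from 42032812 to 42032871 (hg19, minus strand), at base 2537 of NM_000930. Its signal had a lowest value of 468, a median of 528 and a highest value of 555 over the 10 spots of the control vector array. On the DLEU1 vector array the lowest was 1404, the median 1552 and the highest 1670. The spots of the arrays did not overlap, and every spot was well above background.

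Over the 10 spots the PLAT difference ran from 1.45 to 1.65, with a mean of 1.58 ± 0.061 (SD over spots, which is technical). The lowest of these values, 1.45, came from the spot in the low-signal strip, and without the strip the difference was 1.58. Of all genes detected on both arrays, 775 (3.83%) had a difference as high or higher. No PLAT sequence is shown.

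**Figure D1:**
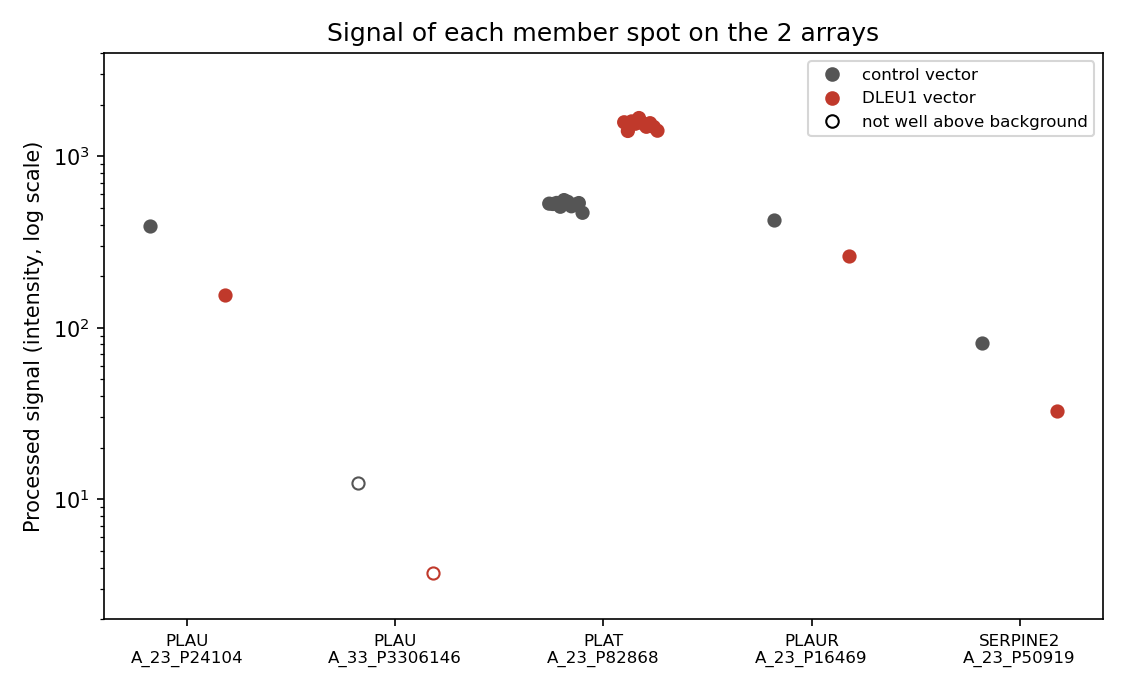
Processed signal (intensity, log scale) of every spot of the 5 member probes, in grey for the control vector array and in red for the DLEU1 vector array, with open circles where a spot was not well above background. The 10 PLAT spots lie above their control counterparts, with medians of 1552 and 528, while the single spots of PLAU, PLAUR and SERPINE2 were lower with the DLEU1 vector.

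The activators thus went in opposite directions. The gap between the PLAT and PLAU differences was 2.89 on the log2 scale. That is 25.5 times the SD of a gap between single spots, although the PLAT value was a mean over 10 spots. A scaling constant moves both genes alike and leaves this gap as it is. Over 13 alternative settings the gap lay between 2.50, with normexp background correction, and 3.11, after subtraction of the median over the 100 nearest spots. Those settings that changed only the scaling constant or the filter on dim probes could not move it.

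PLAUR, the receptor that anchors urokinase to the membrane by a lipid tail, gave a control vector signal of 422 and a DLEU1 vector signal of 262, with software errors of 42.4 and 26.5. The DLEU1 vector array was the lower one. The log2 level went from 0.80 to 0.15, a difference of -0.65 or 1.57-fold lower, which is 8.12 times the spot SD but short of 2-fold. This was a smaller difference than that of its ligand PLAU (PLAU minus PLAUR -0.65, or -5.77 spot SDs of a gap). A total of 3954 genes (19.5%) had a difference as low or lower, so the PLAUR value was not rare on these arrays.

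SERPINE2, the serpin that blocks thrombin, urokinase and tissue-type activator, was the dimmest of the detected member probes. It gave a control vector signal of 81.4 and a DLEU1 vector signal of 32.7, with software errors of 8.74 and 4.58, the lowest signal of a detected probe being 14.2 and 14.3 on these arrays. The DLEU1 vector array was the lower one, and both spots were well above background. The log2 level went from -1.57 to -2.85, a difference of -1.28 or 2.42-fold lower, which 1137 genes (5.62%) matched or passed. This difference depended on the processing. With normexp, run with an added offset of 50, it was -0.54, under 2-fold. PLAU and SERPINE2 differed from each other by -0.02, less than the spot SD.

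**Figure D2:**
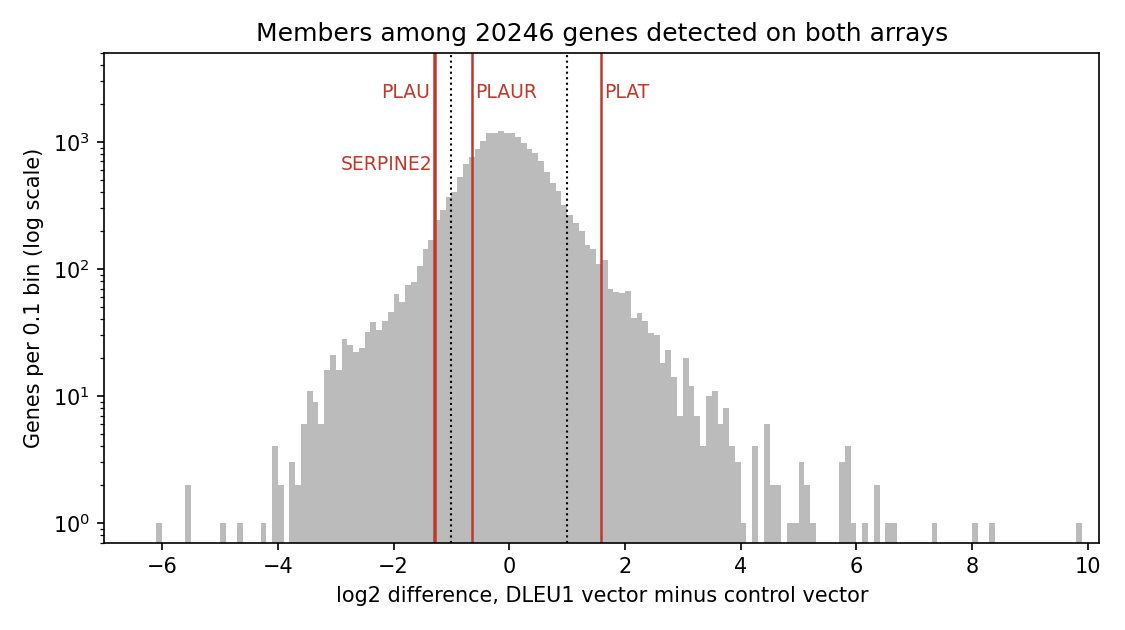
Histogram (log scale of genes per bin) of the log2 difference, DLEU1 vector minus control vector, of the 20246 genes detected on both arrays, with red lines at the members and dotted lines at 2-fold. PLAU (-1.30) and SERPINE2 (-1.28) sit in the lower tail past 2-fold, PLAUR (-0.65) inside the limits and PLAT (1.58) in the upper tail, all well short of the extremes of -6.06 and 9.88.

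To see whether the rest of the system differed too, 33 other genes of plasminogen activation were read, of which 24 were detected on both arrays, 1 on 1 array only and 8 on neither. Of the 24, 14 were higher and 10 lower with the DLEU1 vector, with 3 past 2-fold upward and 1 downward. Over all 20246 genes detected on both arrays, 9278 were higher and 10968 lower. ST14, IGF2R, F2R and F2RL2 changed sign in some of the settings, so the split of the 24 depends on the processing. The median difference of the 24 was 0.29, against -0.07 over all genes detected on both arrays, of which 9.18% were past 2-fold upward and 9.78% downward. With the spike-in probes set equal the median was -0.047, but that scaling moves all genes alike and put the median of all probes at -0.41, so the system median was above that of all probes in both settings.

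Of 6 other inhibitors read, 2 were detected on both arrays, and both were higher where SERPINE2 was lower. SERPINA5, the protein C inhibitor, which also blocks urokinase, went from a log2 level of 0.64 to 2.17, a difference of 1.53 or 2.89-fold higher. SERPINI1, or neuroserpin, which acts mainly on tissue-type activator, differed by 0.92. SERPINB2, which encodes PAI-2, was detected with the DLEU1 vector only at the probe A_24_P245379. It was at least 7.80-fold higher under the main scaling, counted from a control vector signal that was not well above background. No range over the settings is given for it. Its second probe was not well above background on either array, and nor were SERPINF2, A2M and CPB2.

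Plasminogen itself (PLG) was not well above background on either array. Of the genes whose products bind plasminogen at the cell surface, ENO1, an enolase better known from glycolysis, was 2.18-fold lower (-1.12). S100A10, which binds plasminogen in a complex with annexin A2, had the highest value, 0.57, and ANXA2 was at 0.47. The plasminogen receptor gene PLGRKT was at -0.92, and its probe lay in the low-signal strip.

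Among proteases that turn pro-urokinase into its active form, the cathepsin B gene CTSB was 2.17-fold higher (1.11) and the coagulation factor XII gene F12 was lowest at -0.53. ST14, which encodes matriptase, was at 0.29 and turned to -0.05 with the spike-in probes set equal. HPN and KLKB1 were not well above background on either array. Among 10 detected receptors that clear urokinase complexes and partners of the urokinase receptor, 6 were higher and 4 lower, with a median of 0.38. LRP1, which takes up urokinase bound to its inhibitors, was highest by brightest probe, at 1.12, and its other probe was at 0.47. EGFR was at 0.53 for its brightest probe and at 1.16 and 0.48 for its others. Vitronectin (VTN), a matrix ligand of the urokinase receptor, was lowest at -0.92, and VLDLR was not well above background. The VTN probe was dim, at log2 levels of -2.76 and -3.68, and ranged from -1.26 to -0.23 over the settings. Thrombin is the other target of SERPINE2. The list of thrombin and its receptors had 5 detected genes, from -0.42 for F2RL1 to 0.61 for F2, with 0 past 2-fold. F2RL1 is of the same receptor family but is not a main receptor of thrombin. The F2 probe was dim too, at log2 levels of -3.75 and -3.14, and ranged from 0.20 to 0.72 over the settings. A second F2R probe, in the low-signal strip, was detected with the control vector only, at least 1.33-fold lower. THBD was not well above background on either array.

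**Figure D3:**
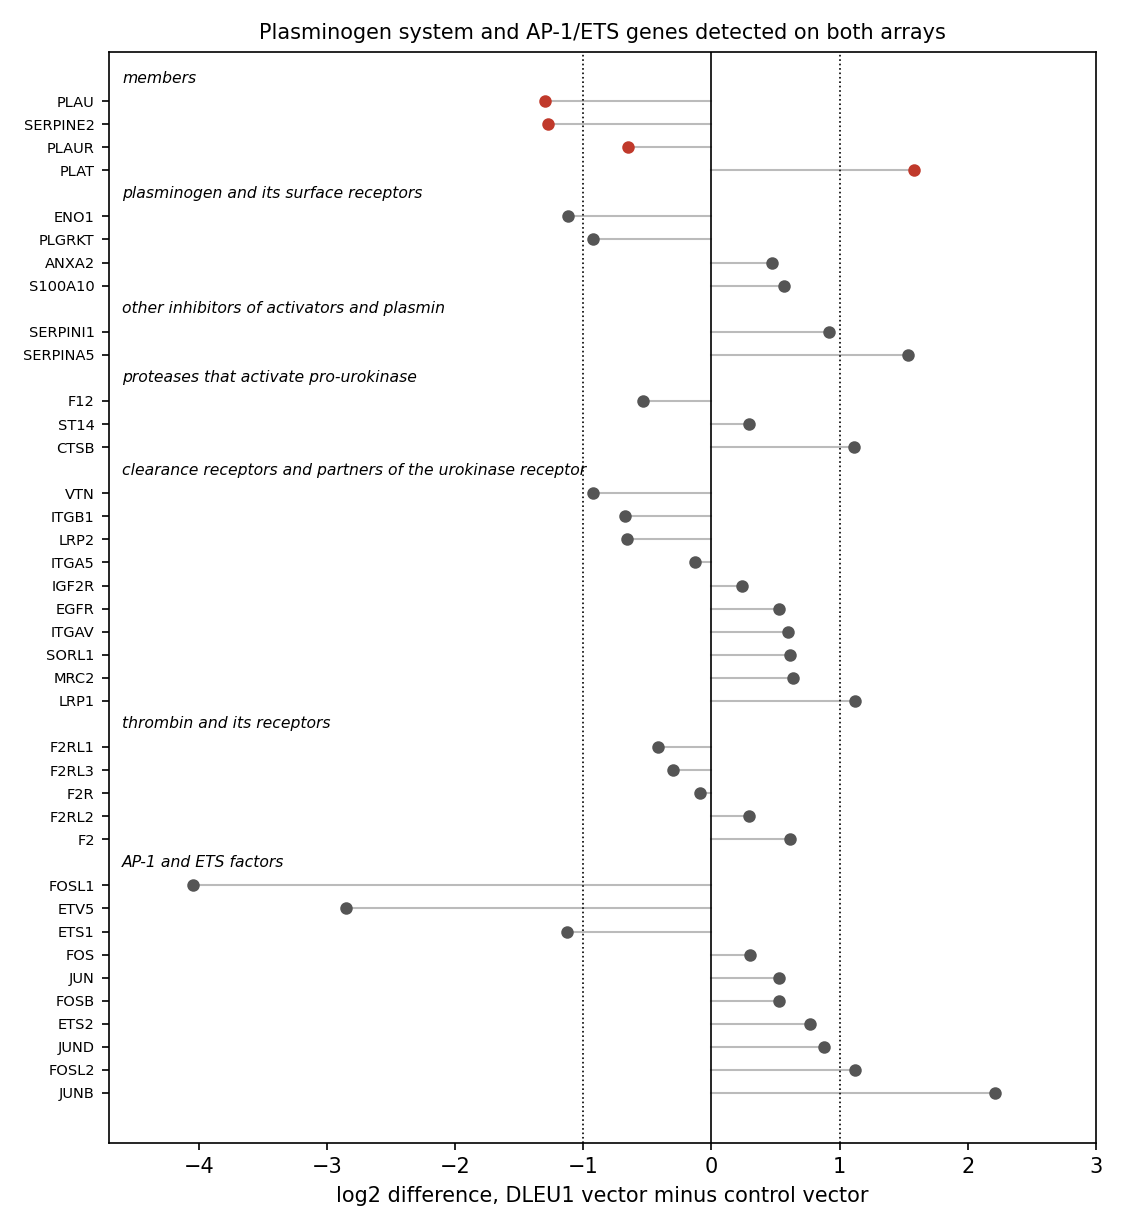
Log2 difference, DLEU1 vector minus control vector, of the 4 members (red) and of the other plasminogen system, AP-1 and ETS genes detected on both arrays (grey), by group, with dotted lines at 2-fold. The inhibitors SERPINA5 and SERPINI1 lie right of 0 where SERPINE2 lies left, and FOSL1 (-4.05) and ETV5 (-2.85) lie farthest left.

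AP-1 and ETS factors are known to act on the urokinase gene and its receptor gene, so 11 of them were read beside the members. Of 10 detected on both arrays, 7 were higher and 3 lower, with a median of 0.53. Over all genes detected on both arrays, 9278 were higher and 10968 lower. FOS, at 0.30, fell to -0.035 at its lowest over the settings. FOSL1, which encodes the AP-1 subunit Fra-1, went from a log2 level of 4.14 to 0.09, a difference of -4.05 or 16.5-fold lower. ETV5 differed by -2.85 and ETS1 by -1.12, and ETV4, like ETV5 of the PEA3 group, was detected with the control vector only, at least 6.33-fold lower. Over the settings run, ETV5 ranged from -3.19 to -1.41 and ETS1 from -1.46 to -0.46. JUNB was 4.63-fold higher (2.21) and FOSL2 2.18-fold higher (1.12). ETS2, at 0.77, was the only ETS factor of the list above 0. Members of both families therefore lay on both sides of 0. The part of these factors in the PLAU and PLAUR values was not tested.

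Markers of cell types were read because PLAT is abundant in endothelium and SERPINE2 in fibroblasts. Both arrays held RNA of the same established OSCC line, so the marker sums describe transcripts in tumour cells. They do not count endothelial cells, fibroblasts or leukocytes. In bulk RNA of the line, fewer cells expressing a gene and less RNA per cell cannot be told apart. All 7 epithelial markers were detected on both arrays, and their summed signal was 82130 for the control vector and 194500 for the DLEU1 vector. Of these, 5 were higher, among them KRT14 (2.85) and KRT5 (2.10), and 2 were lower, KRT18 (-0.93) and EPCAM (-0.78). Of 5 endothelial markers 2 were detected on both arrays, with a sum of 103 and 645. The higher sum held 1 VWF probe, A_23_P105562, with a difference of 3.70, while another VWF probe, A_21_P0012280, differed by -0.07. The other detected endothelial marker, CDH5, differed by -0.59, and PECAM1, KDR and TEK were not well above background on either array. Of 5 fibroblast markers 2 were detected, with a sum of 358 and 5234, COL1A1 differing by 3.99 and PDGFRB by -0.33, and COL1A2, COL3A1 and DCN were not well above background. Of 5 leukocyte markers 3 were detected, with a sum of 1913 and 2139, PTPRC differing by 0.45, CD14 by -1.60 and CD79A by 0.22. The part of these markers in the member values was not tested.

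**Figure D4:**
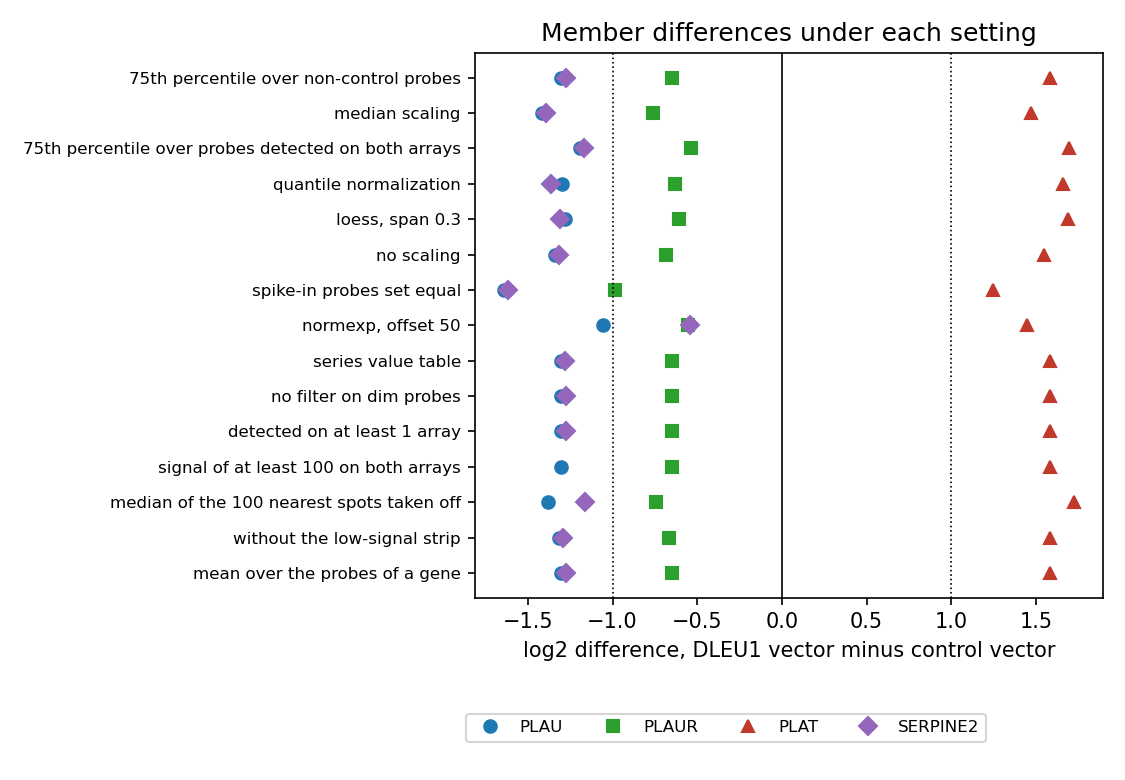
Log2 difference, DLEU1 vector minus control vector, of PLAU (circles), PLAUR (squares), PLAT (triangles) and SERPINE2 (diamonds) under each processing setting, with dotted lines at 2-fold. No member crosses 0, PLAT and PLAU stay past 2-fold throughout, and SERPINE2 moves inside 2-fold with normexp (-0.54).

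Across the settings run, PLAT stayed between 1.25 and 1.72, PLAU between -1.64 and -1.06, PLAUR between -0.99 and -0.54 and SERPINE2 between -1.62 and -0.54. The direction of all 4 members was the same in each of these settings. The order of the differences, with PLAT highest and PLAUR next, held in each of them except with normexp, where SERPINE2 (-0.54) and PLAUR (-0.56) could not be told apart.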

How the data were processed

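RNA of Ca9-22 cells with a control or a DLEU1 vector was measured on 1 array each. The deposited intensity values, per the file headers, were made by Agilent Feature Extraction (version 10.7.3.1), with background subtraction, spatial and multiplicative detrending and surrogate values at dim spots. The authors used GeneSpring, and its settings were not given in the sources used here. The deposited series table held the same intensity, rounded, and differed by at most 0.497%. Neither was normalized between arrays.

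Control spots and spots marked as outliers (84 and 103) were left out, log2 signals were averaged per probe, and the 75th percentile was subtracted. A probe was detected where over 0.5 of its spots were well above background, and a gene took its brightest probe detected on both arrays. For a bound, the dim array was set to its lowest detected signal, or to the probe's signal if that was higher. A difference was called at 2-fold. Depth is limited by the number of arrays. The code was tested on simulated data. limma 3.58.1 gave normexp (offset 50), and statsmodels 0.14.6 gave loess (span 0.3). The low-signal strip held rows to 127 and columns 32 to 47. Named were the members, DLEU1, and, of each pathway group, the genes past 2-fold, detected on 1 array only or at the extremes. Genes named besides these, and all marker values, were added after their values were seen. Genes of like pattern were not sought, since 2 arrays give 1 difference per gene. CD68, on the leukocyte list, had no probe under that name. A gene of the inhibitor list is not reported here, and the counts and medians leave it out. The members and lists were chosen with earlier results of these data known.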

Additional observations from a re-analysis of the deposited data

How the results depend on the processing

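No paired analysis was possible because there was 1 array per group. The member directions held under every alternative run, and the cause of the moves below was not tested unless stated. Values follow as PLAU, PLAUR, PLAT, SERPINE2, the plasminogen system median and the AP-1 and ETS median. Median scaling gave -1.42, -0.76, 1.47, -1.39, 0.18 and 0.42, and the 75th percentile over probes detected on both arrays -1.19, -0.54, 1.70, -1.17, 0.40 and 0.64. Setting the spike-in probes equal gave -1.64, -0.99, 1.25, -1.62, -0.047 and 0.19. These scalings moved the median of all probes by -0.11, 0.11 and -0.34. Normexp gave -1.06, -0.56, 1.44 and -0.54 for the members and 0.43 for the AP-1 and ETS median. Taking off the nearest spots gave -1.38, -0.74, 1.72, -1.16 and a system median of 0.46. Quantile normalization moved SERPINE2 to -1.36, and loess moved PLAT to 1.69 and the system median to 0.38. When both signals had to reach 100, the AP-1 and ETS median was 0.82 and SERPINE2 had no value.

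The number of member probes at least 2-fold lower was 1 with normexp and 1 with a signal of at least 100. With a 3-fold threshold 0 detected member probes were called lower and 0 higher. PLAT lay just short of it at 1.58 and past it in the settings that gave 1.66 to 1.72. The second PLAU probe made the count 3 without a filter on dim probes. No scaling, the series table, the mean over probes and, chosen after seeing the data, leaving out the strip moved each member by less than the spot SD. Signal over background limits SERPINE2 and the second PLAU probe most.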
